A study of Mus musculus with 12 samples.

Results

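The acyl-CoA dehydrogenases are flavoproteins that take the first oxidation step in the breakdown of fatty acids and of several amino acids. The 9 genes described here, Acads, Acadm, Acadl, Acadvl, Acad9, Acad8, Acadsb, Acad10 and Acad11, were chosen by gene symbol from the 32699 genes in the deposited tables. The rule sets no threshold on a value. The family was put forward with earlier results of these data known, and which values led to it is not recorded, so the members' counts and changes below are descriptions and no result rests on how many of them changed. All 9 passed the expression filter, CPM (counts scaled to library size) over 10 in at least 2 of 12 libraries, which 8273 genes passed, and each member was over 10 CPM in all 12 libraries.

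Poly(A) RNA was sequenced from G1E-ER4, a mouse line in which the erythroid factor GATA-1 is carried as an estrogen receptor fusion (GATA-1-ER) that estradiol activates. There were 4 groups of 3 libraries: cells given 10 µM Thiamet-G together with 1 µM estradiol (TMG_E2), cells given 1 µM estradiol alone (E2), cells given 10 µM Thiamet-G alone (TMG) and untreated cells (Ctrl). The treatments lasted 30 h, and the labels give no time for Ctrl. Thiamet-G inhibits OGA, the enzyme that removes the sugar O-GlcNAc from proteins. Every group carried the fusion and grew under puromycin with erythropoietin and stem cell factor, so effects of estradiol that do not pass through the fusion cannot be told apart. Nothing in the labels says that replicates were separate cultures: the spread behind each p-value is that of these libraries and may be technical.

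Each library held 17589400 to 23178700 expected counts, and 94.8% of the variance lay on a component that parted the libraries with estradiol from those without. The labels name the cells as embryonic stem cells, but 0 of 5 markers of that type passed the filter and 3 of them (Pou5f1, Zfp42 and Dppa5a) were at 0 in every library. All 8 erythroid markers passed the filter, with a summed level of 39700 to 44200 CPM in TMG_E2, 39200 to 42200 in E2, 1640 to 1750 in TMG and 1460 to 1500 in Ctrl. The 4 mast cell markers summed to 0.308 to 0.562 CPM in TMG_E2, 0.27 to 0.878 in E2, 79.1 to 95.3 in TMG and 79.5 to 103 in Ctrl, with Mcpt8 at 0 throughout. The 4 granulocyte markers, with Elane at 0, summed to 2.37 to 3.15 CPM in TMG_E2, 1.51 to 1.94 in E2, 20.5 to 23.7 in TMG and 16.8 to 22.1 in Ctrl. The 4 megakaryocyte markers, with 0 past the filter and Ppbp at 0, summed to 13.1 to 15.6 CPM in TMG_E2, 10.8 to 14 in E2, 9.93 to 10.6 in TMG and 6.95 to 9.77 in Ctrl. All 4 sums move with estradiol, and with Thiamet-G the erythroid and megakaryocyte sums did not overlap between TMG and Ctrl, nor the granulocyte sums between TMG_E2 and E2. The part of these sums in the estradiol and Thiamet-G results below was not tested. In bulk RNA, fewer cells of a type and less RNA per cell cannot be told apart.

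As background, an acyl-CoA dehydrogenase removes a pair of hydrogens from an acyl-CoA and hands the electrons through its FAD to electron transfer flavoprotein, whose own dehydrogenase passes them to ubiquinone in the respiratory chain. The chain-length enzymes divide straight-chain fatty acids among them by length, while other family members act on branched acyl-CoAs from valine and isoleucine. Erythroid precursors still hold mitochondria, which maturing red cells lose.

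The upstream sequences of 2 genes are shown because they are the members with the most positive and the most negative change with estradiol, Acadvl and Acads. Both are from RefSeq on GRCm38.p6, read 5′ to 3′ on the strand of the gene, and cover the 250 bases before the annotated start. Capitals mark TTATCT in Acadvl, the reverse complement of AGATAA, the letters that GATA factors are known to bind, and CCCGCCC in Acads, a GC-box.
Acadvl, chr11:70015429-70015678, minus strand: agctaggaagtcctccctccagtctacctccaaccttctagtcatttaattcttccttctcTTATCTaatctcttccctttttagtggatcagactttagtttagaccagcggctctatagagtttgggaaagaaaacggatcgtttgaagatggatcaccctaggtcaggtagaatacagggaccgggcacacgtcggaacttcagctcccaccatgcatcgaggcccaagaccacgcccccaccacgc
Acads, chr5:115119347-115119596, minus strand: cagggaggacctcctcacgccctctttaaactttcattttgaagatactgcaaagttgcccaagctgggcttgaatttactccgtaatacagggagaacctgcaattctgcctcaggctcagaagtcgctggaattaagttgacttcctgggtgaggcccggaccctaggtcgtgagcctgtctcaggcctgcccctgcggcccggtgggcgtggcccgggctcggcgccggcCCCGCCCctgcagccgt
Of 8 members with a RefSeq promoter entry, Acadvl was the 1 with AGATAA on either strand in these 250 bases, at position -189, and 9.99% of 32851 promoters hold it. TGATAA was in 0 of the 8, against 7.94% of promoters. CCCGCCC on either strand was in 5 of the 8, Acads (position -17), Acadl, Acadsb, Acad8 and Acad11, against 23.4% of promoters. That share was not adjusted for GC content, whose median over all promoters was 52.4%. It was 60.4% in Acads, 68% in Acadl, 64% in Acadm and 49.6% in Acadvl. The Acadsb and Acad8 matches lay outside or at the edge of the longest stretch free of annotated exons and the gene's own span. AGGTCA, a nuclear receptor half-site, was in Acadm and Acadvl, and 14% of promoters hold it. A match is a description of letters and not a site, and binding was not measured.

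Per length, the family was led by the long- and medium-chain enzymes in every group. Levels between genes are compared in TPM, which corrects for transcript length. Acadl, the long-chain enzyme, ranked first at 79.4 ± 2.92 TPM in TMG_E2, 76.8 ± 3.77 in E2, 79.0 ± 4.36 in TMG and 81.1 ± 1.81 in Ctrl (SD, n = 3 each). Acadm, the medium-chain enzyme, was second at 63.0 ± 2.79 TPM in TMG_E2, 61.7 ± 1.15 in E2, 72.4 ± 0.756 in TMG and 68.6 ± 1.61 in Ctrl. The lowest was Acad10, at 5.24 ± 0.235 TPM in TMG_E2, 8.79 ± 0.291 in E2, 4.29 ± 0.0153 in TMG and 6.58 ± 0.282 in Ctrl. The third place differed by estradiol: Acadvl, the very long-chain enzyme, held it in TMG_E2 and E2, and Acads, the short-chain enzyme, in TMG and Ctrl. Some neighbours in the order had overlapping ranges, Acad9 with Acads and Acadsb with Acad8 and Acad8 with Acad11 in TMG_E2, the chain of Acad8, Acadsb, Acad11 and Acad10 in E2, Acad9 with Acadvl in TMG, and Acadsb with Acad11 in Ctrl.

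**Figure D1:**
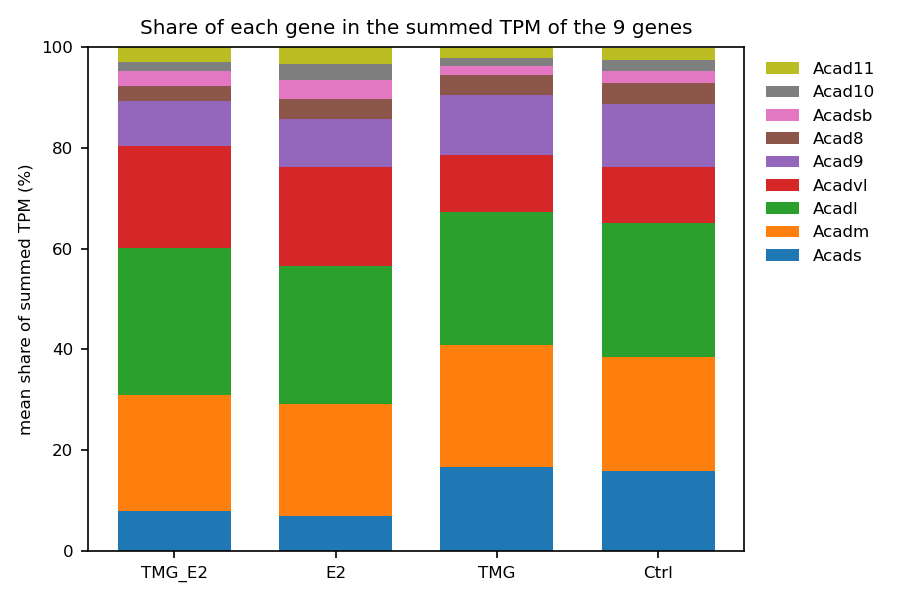
Mean share (%) of each gene in the summed TPM of the 9 genes in the 4 groups (n = 3 libraries each, stacked bars). Acads makes up 7.88% and 7% of the sum in TMG_E2 and E2, against 16.7% and 15.8% in TMG and Ctrl, while Acadvl makes up 20.2% and 19.6%, against 11.3% and 11.1%.

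As a share of the family's summed TPM, Acads was 7.88% in TMG_E2 and 7% in E2, against 16.7% in TMG and 15.8% in Ctrl. Acadvl went the other way, with 20.2% in TMG_E2 and 19.6% in E2, against 11.3% in TMG and 11.1% in Ctrl. The stacked plot of shares shows this exchange as the main difference between bars. The sum itself was 262.8 to 281.4 TPM in the TMG_E2 libraries, 274.0 to 282.6 in E2, 296.6 to 305.3 in TMG and 301.9 to 304.2 in Ctrl. On the CPM scale with TMM scaling, which sets no weight by length, the libraries with estradiol were instead the higher ones, with sums of 437.91 to 440.65 in TMG_E2, 443.29 to 449.58 in E2, 419.43 to 434.1 in TMG and 419.18 to 427.86 in Ctrl. The direction of the family's total with estradiol therefore depends on the scale, and none is given here. TPM moved the median gene of all tested by -0.19 on the log2 scale in E2 vs Ctrl and in TMG_E2 vs TMG, and scaling by library size alone by -0.10 and -0.11, so changes below are relative to TMM.

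**Figure D2:**
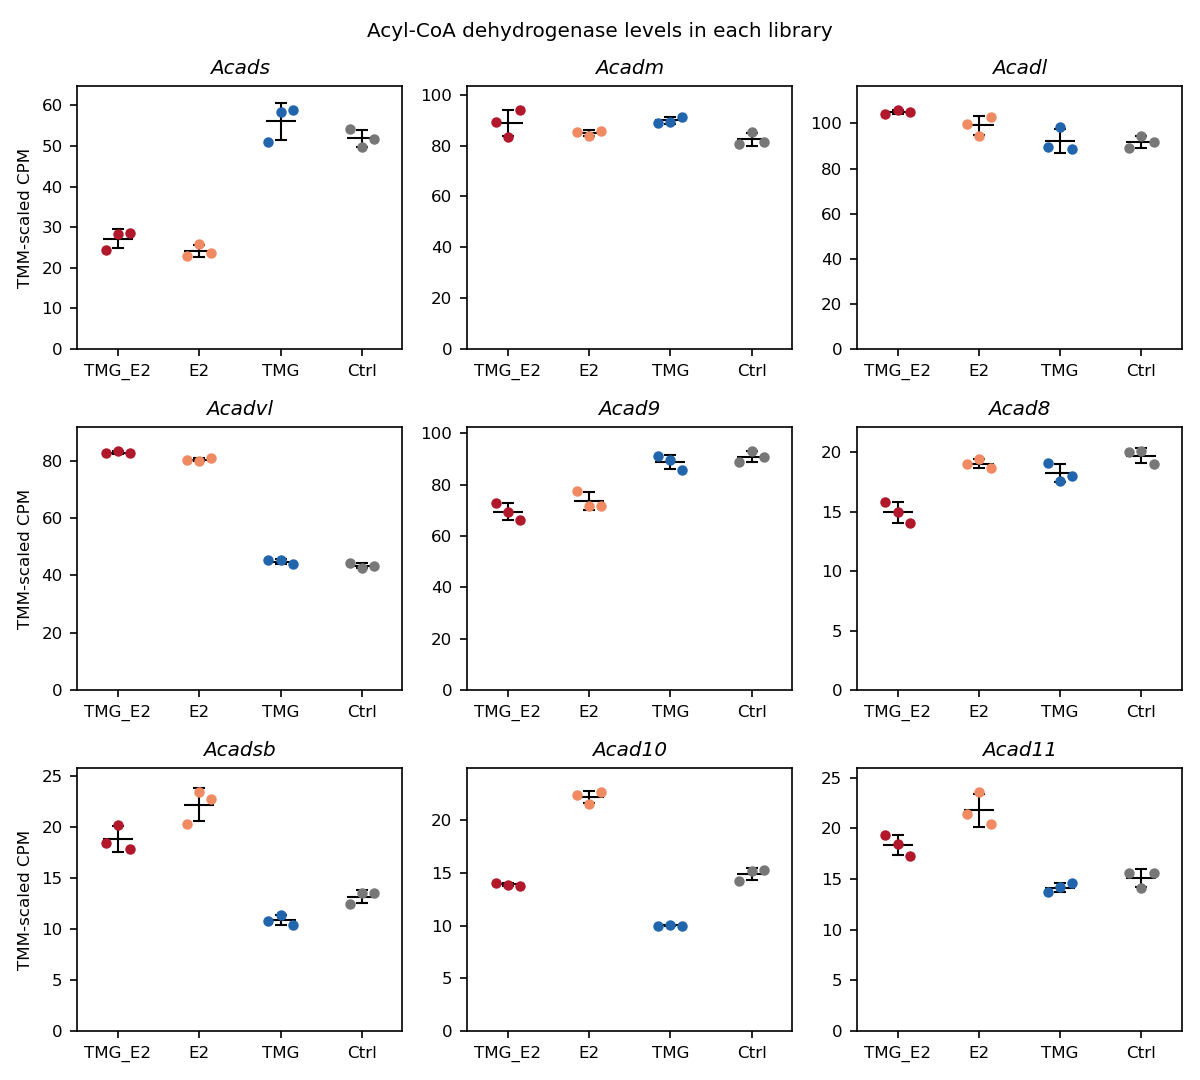
TMM-scaled CPM of each gene (y axes from 0, one scale per gene) in the TMG_E2, E2, TMG and Ctrl groups, with points for the 3 libraries and a bar and whiskers for mean ± SD. Acads is lower and Acadvl higher in all 6 libraries with estradiol, and Acad10 is lower in the TMG_E2 libraries than in E2 and lower in TMG than in Ctrl.

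The comparison of E2 with Ctrl shows what estradiol changed without Thiamet-G. Acads fell, Acad9 fell by less, and Acadvl, Acadsb, Acad10, Acad11 and Acadl rose. Acadm and Acad8 did not pass the test. In all, 7 of 9 members were called (adjusted p under 0.05), 5 higher and 2 lower. Of all genes tested 82.7% were called, 41.5% higher and 41.2% lower, so the members' share is near the background. The groups did not overlap for those 7 members, and for 85.9% of all genes. The members' median change was 0.11, against 0.00 for all genes on the log2 scale, and the median absolute changes were 0.53 and 0.41. With TPM the split of all calls was 2321 higher and 4411 lower, against 3432 and 3406 with TMM.

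Acads, at chr5:115110299-115119346, encodes the short-chain enzyme that acts on butyryl-CoA. It had 22.9, 25.8 and 23.7 CPM in E2, against 54.1, 49.7 and 51.8 CPM in Ctrl. Every E2 library was below every Ctrl library, by a wide gap. The change was -1.10 ± 0.07 (log2 fold change ± SE, as below), 2.15-fold lower in E2, with edgeR adjusted p = 1.38e-10.

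Acadvl, at chr11:70010183-70015428, encodes the enzyme for very long chains, which sits at the inner mitochondrial membrane. It had 80.2, 80.0 and 80.9 CPM in E2, against 44.3, 42.6 and 43.1 CPM in Ctrl, with the libraries of each group close together and the groups far apart. It rose by 0.89 ± 0.04, 1.85-fold (adjusted p = 3.03e-13). In GENCODE, 1151 of its 2686 exon bases are shared with Dvl2 on the other strand. No text used here says whether the authors counted by strand. The fractions in their expected counts added to whole numbers in most libraries, as with 936.98 for Acadvl and 1173.02 for Dvl2 in Ctrl 1. Reads therefore appear to have been shared between Acadvl and Dvl2 despite their strands. Dvl2, a Wnt pathway gene, had 46.5 ± 2.63 CPM in E2 and 56.0 ± 3.28 CPM in Ctrl and fell by 0.27 on the log2 scale (adjusted p = 0.000856). With the counts of both genes summed, the rise was 0.35 (adjusted p = 1.82e-07). That sum takes in all counts of Dvl2, which fell, so it had to lie under the rise of Acadvl alone. It cannot size the Acadvl change, and the part of reads in the shared bases was not tested.

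The other chain-length enzymes changed little. Acadl, at chr1:66830839-66863309, had 99.9, 94.4 and 103 CPM in E2, against 88.9, 94.3 and 91.6 CPM in Ctrl, with the lowest E2 library just above the highest Ctrl one. It rose by 0.11 ± 0.05 (adjusted p = 0.0289), a call lost without Ctrl replicate 1 (adjusted p = 0.107) or 3 (0.0616), without E2 replicate 1 (0.0738) or 3 (0.137) and with library size alone (0.756), while with TPM its change was -0.08. The other 6 called members kept their direction and their call with library size alone and with TPM. Acadm, at chr3:153922353-153944643, had 85.2, 83.6 and 85.8 CPM in E2, against 80.6, 85.3 and 81.4 CPM in Ctrl. Its groups overlapped, and its change of 0.04 ± 0.04 did not pass the test (adjusted p = 0.381). In TPM its groups were apart and lower with estradiol, at 60.37 to 62.43 in E2, against 67.49 to 70.4 in Ctrl. TPM also moved the median gene lower, as given above.

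Acad9, at chr3:36065979-36092857, encodes a relative of the very long-chain enzyme that is known as an assembly factor of respiratory complex I. It had 77.6, 71.5 and 71.5 CPM in E2, against 88.9, 93.1 and 90.6 CPM in Ctrl, and fell by 0.31 ± 0.05 on the log2 scale (adjusted p = 7.74e-06). The groups were apart. A further gene, Gm43079, shares 559 of the 8192 exon bases of Acad9 on the same strand, so counting by strand would not part them.

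The enzymes of branched-chain amino acids differed from each other. Acadsb, at chr7:131410601-131446211, acts on the acyl-CoA from isoleucine, and had 20.3, 23.4 and 22.7 CPM in E2, against 12.4, 13.5 and 13.5 CPM in Ctrl. It rose by 0.75 ± 0.07 (adjusted p = 5.08e-08), and all E2 libraries were above all Ctrl libraries. Acad8, at chr9:26974138-26999571, is the isobutyryl-CoA dehydrogenase of valine breakdown, and had 19.0, 19.4 and 18.7 CPM in E2, against 20.0, 20.1 and 19.0 CPM in Ctrl. Its change of -0.05 ± 0.06 did not pass the test (adjusted p = 0.486), though with library size alone (adjusted p = 0.0488) and with TPM (0.0209) it did, as a fall.

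Acad10 and Acad11 are larger proteins that join a dehydrogenase part to a kinase-like part, and are known in mouse for the breakdown of hydroxylated fatty acids, Acad10 in mitochondria and Acad11 in peroxisomes. Acad10, at chr5:121621026-121660603, had 22.4, 21.6 and 22.7 CPM in E2, against 14.2, 15.2 and 15.3 CPM in Ctrl, and rose by 0.58 ± 0.06 (adjusted p = 1.02e-07). Acad11, at chr9:104063724-104127656, had 21.4, 23.6 and 20.4 CPM in E2, against 15.6, 14.1 and 15.6 CPM in Ctrl, and rose by 0.53 ± 0.07 (adjusted p = 2.93e-06). Both were higher in every E2 library. Acad11 shares 479 of its 9798 exon bases with Ackr4 on the other strand, and Ackr4 averaged 0.241 CPM in E2 and 0.062 CPM in Ctrl. Acad11 also shares 163 exon bases with Gm28305, a protein-coding gene on the same strand.

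**Figure D3:**
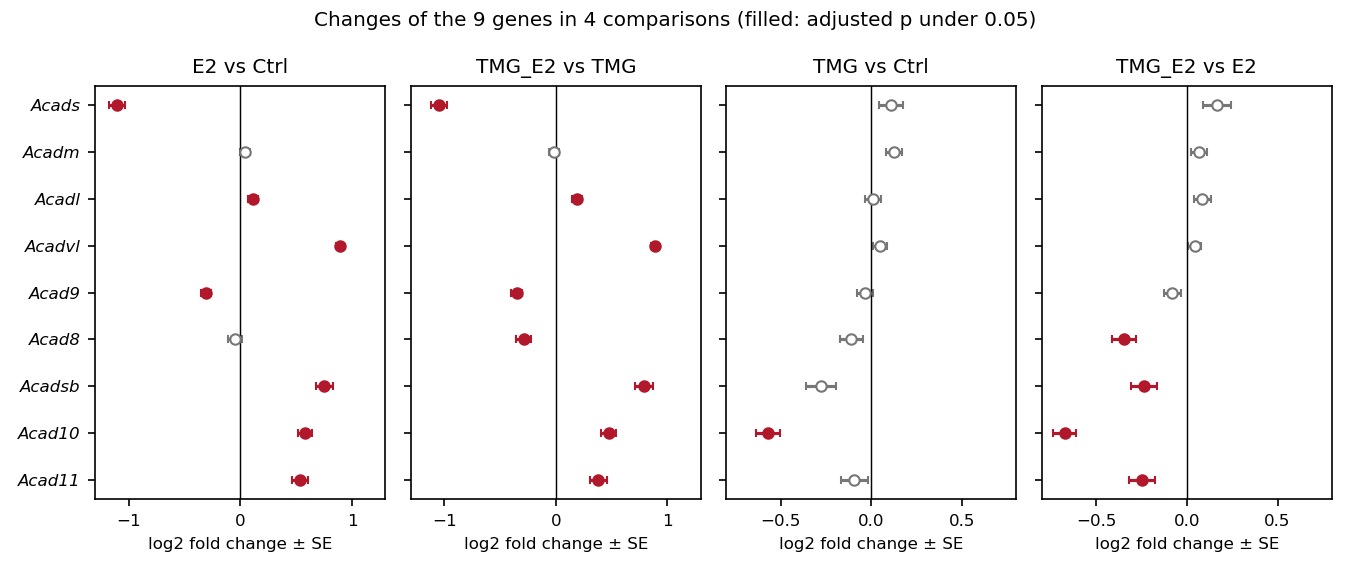
Log2 fold change ± SE of the 9 genes (x axes, with a narrower range in the Thiamet-G panels) in 4 comparisons, 1 panel each, with filled points for adjusted p under 0.05. Filled points number 7, 8, 1 and 4, and Acad10 is filled in all 4 panels, right of 0 with estradiol and left of 0 with Thiamet-G.

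The same question in cells given Thiamet-G is asked by TMG_E2 against TMG, which shares no library with E2 against Ctrl. There 8 of 9 members were called, 5 higher and 3 lower, where 82.7% of all genes were called, 40.9% higher and 41.8% lower. The groups did not overlap for those 8 members and for 81.8% of all genes. With TPM all calls split into 2392 higher and 4398 lower, against 3386 and 3455 with TMM. The members' median was 0.19, against -0.01 for all genes.

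Acads had 24.5, 28.4 and 28.7 CPM in TMG_E2, against 50.9, 58.4 and 58.9 CPM in TMG (log2 fold change -1.05 ± 0.07, adjusted p = 2.39e-10). Acadvl had 82.6, 83.4 and 82.5 CPM in TMG_E2, against 45.3, 45.3 and 43.8 CPM in TMG (0.89 ± 0.04, adjusted p = 3.55e-13; summed with Dvl2, 0.37). The interaction, the estradiol change with Thiamet-G minus that without it, was 0.05 ± 0.10 for Acads (adjusted p = 0.922) and 0.00 ± 0.05 for Acadvl (0.992). Acadsb rose by 0.79 ± 0.08 (adjusted p = 5.53e-08), Acad10 by 0.47 ± 0.07 (5.73e-06), Acad11 by 0.38 ± 0.08 (0.000189) and Acadl by 0.19 ± 0.05 (0.00105), while Acad9 fell by 0.35 ± 0.05 (1.72e-06). Acadl lost its call with library size alone (adjusted p = 0.0809) and with TPM (0.883). Acad8 had 15.8, 15.0 and 14 CPM in TMG_E2, against 19.1, 17.6 and 18 CPM in TMG, and fell by 0.29 ± 0.07 (adjusted p = 0.000803). Acadm changed by -0.02 ± 0.04 and did not pass the test (adjusted p = 0.718), though it was called lower with library size alone (0.0163) and with TPM (0.000327).

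The comparison of TMG with Ctrl shows what Thiamet-G changed without estradiol. A single member, Acad10, was called, and it fell. Of all genes tested 5.15% were called, 2.14% in the lower direction. The members' median change was -0.03, against 0.00 for all genes. The split of all calls was 249 higher and 177 lower with TMM, 179 and 232 with library size alone and 107 and 194 with TPM.

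Acad10 had 10.0, 10.1 and 10.0 CPM in TMG, against 14.2, 15.2 and 15.3 CPM in Ctrl. The TMG libraries were nearly equal to each other and all below the Ctrl libraries. The change was -0.57 ± 0.07 (adjusted p = 0.000103), 1.48-fold lower in TMG, and 0.677% of the tested genes had a larger change in either direction. The call held under all 15 alternatives, with changes between -0.60 and -0.52.

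Acadsb and Acadm also had groups that did not overlap, as 28.7% of all genes did. Acadsb had 10.8, 11.4 and 10.4 CPM in TMG, against 12.4, 13.5 and 13.5 CPM in Ctrl, a difference of -0.28 ± 0.08 that did not pass the test (adjusted p = 0.0625). It did with the fit to these groups alone (adjusted p = 0.0445) and with TPM (0.0303). Acadm had 88.9, 89.4 and 91.4 CPM in TMG, against 80.6, 85.3 and 81.4 CPM in Ctrl, a difference of 0.13 ± 0.04 (adjusted p = 0.112) that passed with the fit to these groups alone (0.0453). The other 6 members had differences between -0.11 and 0.11 and overlapping groups, with adjusted p of 0.386 and above.

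In cells given estradiol, TMG_E2 against E2 asks the same of Thiamet-G. Acad10, Acad8, Acad11 and Acadsb fell, and no member rose. Of all genes tested 12.8% were called, 7.14% in the lower direction, against 4 of 9 members. The members' median was -0.08, against 0.00 for all genes. TMM gave 464 calls higher and 591 lower, library size alone 348 and 764, and TPM 194 and 699. The replicates of TMG_E2 differed most among the groups, with a chi-square per degree of freedom of 8.66 to 13.1 between libraries, against 2.41 to 4.17 in the others. The count of members called was 2 without E2 replicate 2 and 2 without TMG_E2 replicate 3.

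Acad10 had 14.1, 13.9 and 13.8 CPM in TMG_E2, against 22.4, 21.6 and 22.7 CPM in E2. Again the libraries given Thiamet-G were close to each other and well below their controls. The change was -0.67 ± 0.06 (adjusted p = 9.54e-06), 1.60-fold lower in TMG_E2, and 0.435% of the tested genes had a larger one. All 15 alternatives kept the call, with changes between -0.70 and -0.65. The TMG_E2 mean of 13.9 ± 0.117 CPM was below the 14.9 ± 0.605 CPM of Ctrl, narrowly without overlap between libraries; that pair differs in both treatments and was not tested.

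Acad8 had 15.8, 15.0 and 14 CPM in TMG_E2, against 19.0, 19.4 and 18.7 CPM in E2, and fell by 0.35 ± 0.07 (adjusted p = 0.00307). Its groups were apart in every library. Acad11 had 19.3, 18.5 and 17.3 CPM in TMG_E2, against 21.4, 23.6 and 20.4 CPM in E2, a fall of 0.25 ± 0.07 (adjusted p = 0.0334). That call was lost without E2 replicate 1 (adjusted p = 0.0653) or 2 (0.158), without TMG_E2 replicate 2 (0.0665) or 3 (0.0857), with DESeq2 (0.0717) and with these groups fitted alone (0.0871). Acadsb had 18.4, 20.2 and 17.8 CPM in TMG_E2, against 20.3, 23.4 and 22.7 CPM in E2, a fall of 0.24 ± 0.07 (adjusted p = 0.0421). This was the call nearest the threshold: it was lost without E2 replicate 2 (adjusted p = 0.165) or 3 (0.132), without TMG_E2 replicate 1 (0.0893) or 3 (0.0981), and in 5 other settings with adjusted p of 0.0506 to 0.102.

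The chain-length enzymes did not pass the test with Thiamet-G in cells given estradiol. Acads had 24.5, 28.4 and 28.7 CPM in TMG_E2, against 22.9, 25.8 and 23.7 CPM in E2, with overlapping libraries (0.16 ± 0.08, adjusted p = 0.178). Acadl had 104, 106 and 105 CPM in TMG_E2, against 99.9, 94.4 and 103 CPM in E2 (0.08 ± 0.05, adjusted p = 0.245). Acadl and Acadvl were the members with all TMG_E2 libraries higher, though neither was called, and groups were apart for 28.5% of all genes. Acad9, with 72.8, 69.2 and 66.3 CPM in TMG_E2, against 77.6, 71.5 and 71.5 CPM in E2, also did not pass (-0.08 ± 0.05, adjusted p = 0.288).

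**Figure D4:**
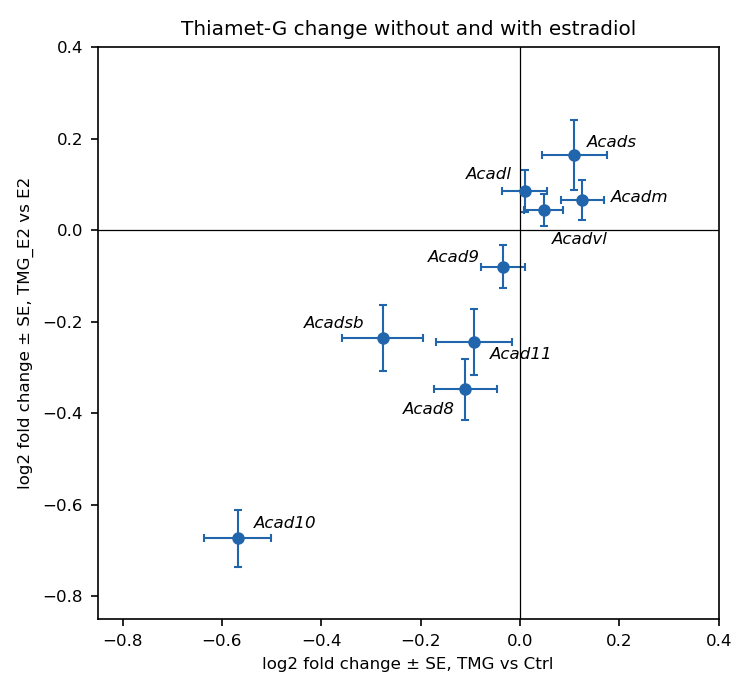
Log2 fold change ± SE of each gene in TMG vs Ctrl (x axis) against TMG_E2 vs E2 (y axis), which share no library. Acad10 lies at -0.57 and -0.67, below and left of the other 8 genes, and 4 genes lie above 0 and 5 below 0 on both axes.

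The Thiamet-G comparisons share no library, so the members' values can be set side by side. All 9 had the same sign in both, 4 positive (Acads, Acadm, Acadl and Acadvl) and 5 negative (Acad9, Acad8, Acadsb, Acad10 and Acad11), against 67.9% of the 8273 genes. The sign of Acadl in TMG vs Ctrl is not settled, since its value was 0.01 with TMM and -0.04 with TPM. Pearson's r across the 9 genes was 0.928, with 0.482 across all genes; genes are not independent replicates, and the points share their libraries within each axis. Acad10 was the member called lower in both, as were 101 of all genes.

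The difference between the Thiamet-G changes with and without estradiol was tested as an interaction. It was called for 0.931% of all genes and for 0 of 9 members by edgeR, DESeq2 and limma on TPM. At an unadjusted p under 0.05 there was 1 member, Acad8 (-0.24 ± 0.09, unadjusted p = 0.0202, adjusted p = 0.308). For Acad10 the interaction was -0.11 ± 0.09 (adjusted p = 0.789), and for Acad11 -0.15 ± 0.11 (0.667). So the calls of Acad8, Acad11 and Acadsb with estradiol, and not without it, are not shown to differ between the conditions. This miss does not show that the changes are alike.

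Acad10 lies beside Acad12, at chr5:121598277-121618938, a family gene by its symbol. The expected counts of Acad10, Acad9 and Acadvl were not whole in any of the 12 libraries, as RSEM gives where reads match more than 1 gene. For Acadvl the fractions pair with those of Dvl2, as given above. Those of Acad10 and Acad12 did not add to whole numbers in most libraries, as with 299.5 and 48.14 in Ctrl 1. Which genes shared reads with Acad10 and Acad9 was not tested. Acad12 was under the filter, at 2.01, 2.30 and 1.80 CPM in TMG_E2, 3.09, 2.85 and 2.88 in E2, 1.56, 1.63 and 1.06 in TMG and 2.27, 1.51 and 2 in Ctrl. Without a filter its changes were -0.43 in TMG vs Ctrl (adjusted p = 0.397) and -0.52 in TMG_E2 vs E2 (0.0894). The counts of Acad10 and Acad12 summed gave -0.55 in TMG vs Ctrl (adjusted p = 7.77e-05) and -0.66 in TMG_E2 vs E2 (8.81e-06), close to Acad10 alone. Acad12 held few counts beside Acad10 and its changes had the same sign, so this sum had to lie near Acad10. The sum cannot show whether reads were shared.

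Besides Acad12, 2 more acyl-CoA dehydrogenases outside the list were read, Gcdh and Ivd. Gcdh, at chr8:84886387-84893921, acts on glutaryl-CoA from lysine and tryptophan, and had 109, 106 and 103 CPM in E2, against 22.4, 23.1 and 24.5 CPM in Ctrl. It rose by 2.18 ± 0.05 (adjusted p = 5.43e-17), a larger value than that of any of the 9, and by 2.11 ± 0.05 in TMG_E2 vs TMG. With Thiamet-G its changes were 0.18 in TMG vs Ctrl (adjusted p = 0.0623) and 0.11 in TMG_E2 vs E2 (0.0788). Ivd, at chr2:118861959-118882909, is the isovaleryl-CoA dehydrogenase of leucine breakdown, and had 10.8, 13.3 and 10.5 CPM in TMG_E2, against 15.0, 14.3 and 16.1 CPM in E2. It fell by 0.39 ± 0.10 (adjusted p = 0.0144), with a value of -0.31 ± 0.09 in TMG vs Ctrl (0.0666) and -0.06 ± 0.09 in E2 vs Ctrl (0.538).

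**Figure D5:**
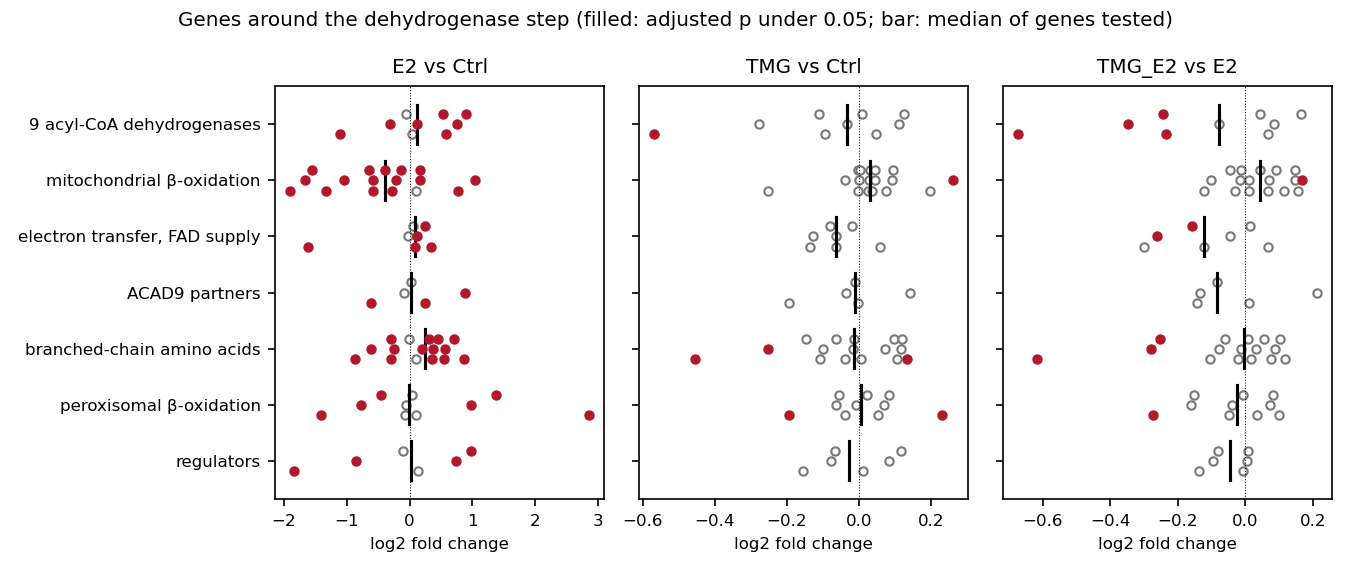
Log2 fold changes (x axes) of the 9 genes and of the tested genes in 6 related lists, 1 panel a comparison and 1 point a gene, filled for adjusted p under 0.05, with a bar at each median. Most mitochondrial β-oxidation genes lie left of 0 in E2 vs Ctrl (median -0.39), and in the Thiamet-G panels few points are filled.

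The genes around the dehydrogenase step show what surrounds these values, in lists chosen with earlier results known. The counts below stand beside 82.7% of all genes called in E2 vs Ctrl (41.5% higher, 41.2% lower), 5.15% in TMG vs Ctrl and 12.8% in TMG_E2 vs E2. Of 17 tested genes of 20 in mitochondrial β-oxidation, 4 rose and 12 fell in E2 vs Ctrl by edgeR (median -0.39). DESeq2 called 15 of the 17 there, without Cpt2 (adjusted p = 0.0586, with 0.0211 by edgeR). Cpt1a, which brings long-chain acyl groups into mitochondria, rose by 1.04 ± 0.05, to 178 ± 2.15 CPM in E2, against 86.4 ± 3.04 CPM in Ctrl. Acsl3, an acyl-CoA synthetase gene, fell by 1.90 ± 0.05 on the log2 scale. Among the enzymes after the dehydrogenase step, Hadh fell by 1.05, Acaa2 by 1.56, Echs1 by 0.64 and Decr1 by 1.67 on the log2 scale. Hsd17b10 fell by 0.58 and Hadhb by 0.14, while Hadha rose by 0.17 and Eci2 by 0.76. Eci1 did not pass the test (0.11, adjusted p = 0.135). With Thiamet-G edgeR called 1 of the 17 in each comparison, Eci2, an enoyl-CoA isomerase gene, which rose by 0.26 in TMG vs Ctrl (adjusted p = 0.00486) and by 0.17 in TMG_E2 vs E2 (0.0191). DESeq2 called 1 and 2 of the 17, Eci2 in both and Acsl5 in TMG_E2 vs E2 (adjusted p = 0.0435, with 0.0515 by edgeR).

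Genes for the electron acceptors and for FAD supply moved in both directions with estradiol. Of 7 tested genes of 8 for electron transfer and FAD supply, 4 rose and 1 fell in E2 vs Ctrl by edgeR (median 0.09). Etfdh, the ubiquinone-linked step, rose by 0.35 ± 0.06 and the carrier gene Slc25a32 fell by 1.62 ± 0.06. DESeq2 called 4 of these 7, without Etfa (adjusted p = 0.0801, with 0.0417 by edgeR). In TMG vs Ctrl 0 of the 7 were called by edgeR or DESeq2, with 1 at an unadjusted p under 0.05, and in TMG_E2 vs E2 Flad1, the FAD synthase gene, fell by 0.26 (adjusted p = 0.00516) and Etfb, a subunit of the flavoprotein, by 0.16 (0.0389), of which DESeq2 did not call Etfb (0.068). Of the 5 tested partners of ACAD9 in complex I assembly, 2 rose and 1 fell in E2 vs Ctrl. Tmem126b rose by 0.88 ± 0.10, Ndufaf1 by 0.25 ± 0.07 and Ecsit fell by 0.61 ± 0.06, where Acad9 itself fell by 0.31. Tmem126b was at most 7.31 CPM in Ctrl and 7.56 CPM in TMG. It passed the filter only through libraries with estradiol, which favours a rise. In the Thiamet-G comparisons 0 of the 5 were called by edgeR or DESeq2, with 1 at an unadjusted p under 0.05 in TMG vs Ctrl and 2 in TMG_E2 vs E2.

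In branched-chain amino acid breakdown, the pathway of Acad8, Acadsb and Ivd, 9 of 16 tested genes rose and 5 fell in E2 vs Ctrl (median 0.25). Aldh6a1 was the highest at 0.87 ± 0.08 and Bckdhb the lowest at -0.86 ± 0.10. Bckdhb was at most 8.16 CPM in E2 and 5.57 CPM in TMG_E2. It passed the filter only through libraries without estradiol, which favours a fall. With Thiamet-G, Bckdhb, a subunit of the branched-chain keto acid dehydrogenase that works upstream of these enzymes, fell in both comparisons. It had 10.5 ± 1.36 CPM in TMG and 14.3 ± 0.971 CPM in Ctrl (-0.46 ± 0.10, adjusted p = 0.0106), and 5.18 ± 0.536 CPM in TMG_E2 and 7.90 ± 0.263 CPM in E2 (-0.62 ± 0.12, adjusted p = 0.00271). Pcca, a propionyl-CoA carboxylase subunit, fell by 0.25 in both (adjusted p = 0.0176 in TMG vs Ctrl and 0.0121 in TMG_E2 vs E2), Bckdk, the kinase of the complex, fell by 0.28 in TMG_E2 vs E2 (0.00386), and Bcat2 rose by 0.13 in TMG vs Ctrl (0.0378). In each comparison the other 13 of 16 tested genes were not called.

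Of 10 tested peroxisomal β-oxidation genes of 16, the compartment of Acad11, 3 rose and 3 fell in E2 vs Ctrl. Crat, a carnitine acetyltransferase gene, rose by 2.86 ± 0.04. Hsd17b4, of the next steps, fell by 0.19 in TMG vs Ctrl (adjusted p = 0.022) and by 0.27 in TMG_E2 vs E2 (0.00151), and Crat rose by 0.23 in TMG vs Ctrl (0.00811). Of 6 tested regulators of 12, 2 rose and 2 fell with E2: the nuclear receptor gene Ppard rose by 0.98 ± 0.08, Mlycd by 0.74 ± 0.08, and Esrra fell by 0.85 ± 0.08 and its coactivator gene Ppargc1b by 1.83 ± 0.09. Ppargc1b was at most 7.78 CPM in E2 and 7.7 CPM in TMG_E2. It passed the filter only through libraries without estradiol, which favours a fall. Ppara and Ppargc1a were under the filter. In each Thiamet-G comparison 0 of the 6 were called by edgeR or DESeq2, also at an unadjusted p under 0.05. The interaction was called by edgeR and DESeq2 for 0 genes of any of these lists, with 1 gene each of the mitochondrial, branched-chain and peroxisomal lists at an unadjusted p under 0.05.

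Across the 12 libraries the members fell into patterns that estradiol separates, and the correlations below are descriptions over libraries that share this division. Acads ran against Acadvl (Pearson's r = -0.971) and against Acadsb (-0.95), and Acad9 against Acadvl (-0.954). Acad11 and Acadsb ran together (0.938), and Acadm was near independent of Acads (-0.0122). Among all genes tested, those most like Acadvl were Add3 and Ccnd3 (0.999 each) and those most like Acads were Tfeb and Midn (0.994 each). Acad9 was most like Dnah8 (0.988) and Cdk6 (0.984), and Acadsb most like Pcx (0.986) and BC003331 (0.985). Acad10, which moves with both treatments, was most like Ift172 (0.98) and Mmab (0.978). Acad11 was most like Tyk2 (0.973) and Vipas39 (0.972), and Acad8 most like Ift140 (0.962) and Elmod3 (0.954). Acadl had Bnip2 (0.927) and Mrps14 (0.926), and Acadm Srsf5 (0.889) and Rpl11 (0.888).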

How the data were processed

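Per the labels' protocols and the series design text, paired-end reads of stranded poly(A) libraries were aligned to GRCm38 and quantified by the authors with RSEM 1.2.22 (FastQC 0.11.2, Bowtie2 and edgeR 3.14.0 in R 3.2.2 are also named). The deposited files hold, per the file headers, an expected count, TPM and FPKM per gene. The deposited expected counts share reads that match several genes, and the authors' TPM and FPKM values are scaled for length and depth. The strand setting of RSEM is not given in the text used here.

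Expected counts were rounded and tested with edgeR 4.0.16 in R 4.3.3 (quasi-likelihood test, TMM, 1 fit over 12 libraries with a mean per group). Genes with CPM over 10 in at least 2 libraries were kept, and p-values were adjusted by Benjamini-Hochberg over all 8273, with 0.05 as threshold. SEs come from the F statistic. Members, lists and tests were chosen with earlier results of these data known. The genes named are the 9 members, Ivd and Gcdh, the called genes of largest change in each list and direction, and the 2 genes with the highest Pearson's r to each member. Other list genes, and Acad12, Dvl2, Ackr4, Gm28305 and Gm43079, were named after their values were seen. Groups and replicate numbers come from the titles. Alternatives were DESeq2 1.42.0, limma 3.58.1 on log2(TPM + 1), other filters and scalings, a replicate block, the compared groups alone, each library left out and, added after seeing the data, sums of overlapping genes. The edgeR test was tried on simulated data. Positions and sequences are RefSeq on GRCm38.p6, and shared exon bases are from GENCODE. Acad9 had no promoter entry. Some list genes enter the counts but have no values given here.

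Same-numbered libraries deviated together from their group means with correlations of 0.108, 0.278 and 0.112 in E2 vs Ctrl, 0.285, 0.182 and 0.201 in TMG_E2 vs E2, and 0.525, 0.149 and 0.412 in TMG_E2 vs TMG, so numbers were taken to pair libraries there, from the data and not the labels. Libraries held 17589400 to 23178700 counts, at which 3 counts equal 0.133 to 0.180 CPM; this covers counting error only.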

Additional observations from a re-analysis of the deposited data

How the results depend on the processing

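The count of members called stayed within 1.5 times of the main value under every alternative in E2 vs Ctrl, TMG_E2 vs TMG and the interaction. In TMG vs Ctrl, where 1 member was called, limma on TPM called 2 and the fit to the compared groups alone 3. In TMG_E2 vs E2, where 4 were called, that fit and DESeq2 called 2 each, and leaving out 1 library gave 2 to 3. The replicate block left every member call as it was where numbers pair libraries. In TMG vs Ctrl, where same-numbered libraries correlated at 0.0876, 0.0295 and 0.188, it called 2 members, with Acadsb added (adjusted p = 0.0311), and 675 genes in place of 426. Signs turned for values near 0: Acadl in E2 vs Ctrl (-0.0787 with TPM) and in TMG vs Ctrl (-0.00845 with library size, -0.0381 with TPM, -0.0398 to 0.0370 leaving out 1 library), and Acadm in E2 vs Ctrl (-0.0565 with library size, -0.1495 with TPM) and in TMG_E2 vs TMG (-0.0534 to 0.0249 leaving out 1 library). In the interaction, Acadsb was -0.0328 with TPM, and Acadvl was 0.000628 with filterByExpr, 0.00716 with RLE, 0.00704 with DESeq2, 0.00625 with TPM and 0.0178 summed with Dvl2. Leaving out 1 library, interactions spanned -0.0858 to 0.00228 for Acad9, -0.0124 to 0.1262 for Acads, -0.0111 to 0.0793 for Acadsb and -0.0210 to 0.00838 for Acadvl. The causes were not tested. Over all genes, the compared groups alone gave 768 calls in TMG vs Ctrl and 539 in TMG_E2 vs E2 (main 1055), and leaving out 1 library 198 to 257 and 659 to 1159. Interaction calls (main 77) were 178 with no filter, 48 with filterByExpr, 171 with the replicate block, 31 with TPM and 15 to 161 leaving out 1 library. Genes under the filter rest on few counts, such as Acad12 at 1.06 to 3.09 CPM and Ackr4 at 0.0445 to 0.338 CPM.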
